A study of Homo sapiens with 6 samples.

Results

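The transferrin receptor TFRC and 9 further genes of iron uptake, storage, sensing and release were followed in 8505C cells, an established human anaplastic thyroid cancer (ATC) cell line, after knockdown of NUF2. The genes were chosen by name, namely TFRC, FTH1, FTL, IREB2, ACO1, SLC40A1, SLC11A2, STEAP3, NCOA4 and HMOX1, and each was found as 1 row among the 32985 gene rows of the table. Poly(A) RNA of 6 libraries was sequenced, 3 from cells given a control siRNA (siCtrl) and 3 from cells given a siRNA against NUF2, a subunit of the NDC80 complex of the kinetochore (siNUF2), all labelled 24 h and all from the same unmodified line grown in RPMI-1640 with fetal bovine serum. A single siRNA sequence against NUF2 was stated, so the loss of NUF2 and any other target of that siRNA cannot be told apart. The labels do not say whether the libraries of a group came from separate cultures, and p-values therefore measure the spread between these libraries, which may be technical.

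Cells take up iron as iron-loaded transferrin bound to TFRC. In the endosome the iron is reduced by STEAP3 and carried into the cytosol by SLC11A2 (DMT1). Iron that is not used is stored in ferritin, a shell of heavy (FTH1) and light (FTL) chains, which NCOA4 delivers to the lysosome when iron is needed, and SLC40A1 (ferroportin) is the exporter. HMOX1 releases iron from haem. The iron-regulatory proteins, encoded by ACO1 (IRP1) and IREB2 (IRP2), bind hairpins called iron-responsive elements (IREs) in iron-poor cells. Their binding in a 5′ UTR blocks translation of ferritin and ferroportin mRNA, and their binding in the 3′ UTR stabilises TFRC mRNA. Proliferating cells need iron, and many tumour cells carry abundant transferrin receptor.

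The IREs are shown because they are the hairpins through which TFRC and ferritin mRNA are regulated in opposite directions. The letter form searched was a C, 5 bases, the loop CAGTGN and 5 bases that pair with the first 5 (G with U allowed), taken on the sense strand in the annotated UTRs of GENCODE release 44 on GRCh38. It was found 4 times in TFRC and 1 time each in FTH1, FTL and SLC40A1, and these letters were not in the UTRs of the other 6 members, SLC11A2 included. Across the tested genes the same form was found in 0.223% of 9433 genes with a 5′ UTR and in 0.885% of 10174 genes with a 3′ UTR. The 4 copies of TFRC lie in its last exon, exon 19 of 19, on the minus strand within chr3:196050463-196051006, whereas those of FTH1 (chr11:61967574-61967601, minus strand), FTL (chr19:48965336-48965363, plus strand) and SLC40A1 (chr2:189580661-189580688, minus strand) lie in the 5′ UTR of exon 1. They are written 5′ to 3′ with the loop in capitals.
TFRC element at 196050979: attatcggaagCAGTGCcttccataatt
TFRC element at 196050575: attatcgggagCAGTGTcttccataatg
TFRC element at 196050510: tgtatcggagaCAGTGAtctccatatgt
TFRC element at 196050463: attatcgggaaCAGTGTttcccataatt
FTH1 element: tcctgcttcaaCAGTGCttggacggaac
FTL element: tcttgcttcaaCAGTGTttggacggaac
SLC40A1 element: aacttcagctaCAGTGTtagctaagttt
The elements of the 2 ferritin chains were identical at 26 of 28 bases, with the substitutions C3T and C17T from FTH1 to FTL, counted from 1 at the 5′ end of the stretch shown.

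In siCtrl cells the light and heavy ferritin chains were by far the most abundant of these mRNAs. Levels are given as FPKM, which correct read fragments for gene length and for library depth. The order of genes of different length therefore rests on the lengths used, which are not given in the sources used here. FTL stood at 1240 ± 164 FPKM (SD, n = 3) and FTH1 at 551 ± 117, which ranked 19 and 39 among the 11725 genes with a mean of at least 1 FPKM over all libraries. TFRC followed at 48.7 ± 9.07 FPKM, NCOA4 at 26.0 ± 1.60 and ACO1 at 18.5 ± 1.45. HMOX1 at 11.6 ± 5.35 and STEAP3 at 9.04 ± 2.51 came next, then IREB2 at 5.76 ± 0.169 and SLC11A2 at 3.61 ± 0.674. The exporter SLC40A1 was at the bottom with 0.0821 ± 0.0164 FPKM, below the level of 1 FPKM required for the test. The siCtrl values of neighbours in this order did not overlap except for HMOX1 and STEAP3, whose order is therefore not resolved. Of the 2 iron-regulatory proteins, the mRNA of ACO1 exceeded that of IREB2 in each siCtrl library.

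**Figure D1:**
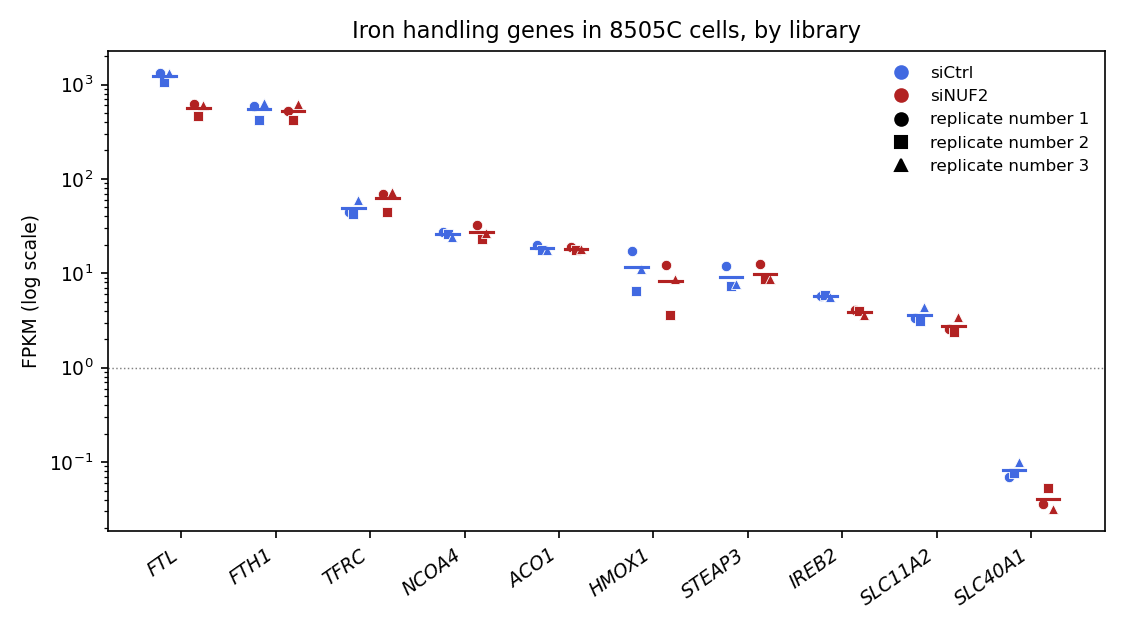
FPKM on a log axis for the 10 genes, ordered by their level in siCtrl cells, with a point per library, its shape giving the replicate number, and a bar at the mean of each group (n = 3). The dotted line marks 1 FPKM, and the FTL, IREB2 and SLC40A1 points of siNUF2 all lie below those of siCtrl. The share of tested genes with siNUF2 values wholly below siCtrl values was 13.4%, which does not cover SLC40A1.

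The knockdown was present in each library labelled siNUF2. NUF2 read 14.8, 14.5 and 12.2 FPKM in siCtrl and 1.53, 2.05 and 1.56 in siNUF2, always given here in the order of replicate numbers 1, 2 and 3, or 12.4% of control (log2 fold change -2.99, SE 0.17, adjusted p = 0.00051). Total counts per library ran from 61257859 to 69755291. Of the thyroid markers, NKX2-1 was present at 14.6 to 21.5 FPKM, PAX8 was under 1, TG, SLC5A5, FOXE1 and DIO1 did not pass 0.0805, and TSHR was not in the table. The epithelial markers were divided, with 4 of 6 at a mean of at least 1 FPKM. These were the keratins KRT7 (354 to 512 FPKM), KRT8, KRT18 and KRT19, while EPCAM was at most 0.243 and CDH1 at most 0.0227. The libraries of number 1 stood apart in both groups for some of the listed blood cell markers, but not for all of them. HBA1, HBA2 and HBB, the globin genes of red blood cells, and LYZ, a leukocyte gene, read 9.08, 11.1, 12.4 and 7.47 FPKM in siCtrl library 1 and 4.31, 5.98, 4.24 and 0.434 in siNUF2 library 1, against at most 0.0728 in the other 4 libraries. PTPRC and CD163 were also highest in number 1 of each group. In contrast, ALAS2 read 0 in both libraries of number 1, and CD68 was highest in number 3. EPOR (0.592 FPKM) and CD14 (0.703) were lowest of their group in siNUF2 library 1. The summed erythroid markers ranged from 1.59 to 34.2 FPKM in siCtrl and from 0.934 to 15.1 in siNUF2, and the leukocyte markers from 5.74 to 17 and from 6.27 to 7.85. For the leukocyte markers, library 1 was the highest of siCtrl (17) but the lowest of siNUF2 (6.27). Libraries of the same number also deviated together across genes, so the fit with the number as a block is given where it changed a call or a count.

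Of the 10 genes, 9 passed the filter on low values and were tested with edgeR. FTL and IREB2 fell, 0 rose and 7 did not pass the threshold (adjusted p under 0.05). Over all genes tested, 2.46% were called lower and 1.53% higher. With the replicate number as a block 4 members were lower, FTL, IREB2, SLC11A2 and HMOX1, and 0 higher, against a background of 7.91% lower and 6.64% higher. At an unadjusted p under 0.05, 0 of the 9 were higher with edgeR, 1 (TFRC) with the block and 1 with DESeq2, and neither DESeq2 nor limma called a member higher after adjustment. Of all 11725 tested genes, 2129 with edgeR, 3505 with the block and 2219 with DESeq2 were under this level in either direction. The median log2 fold change of the 9 genes was -0.06 and that of all tested genes 0.01, with 90% of genes between -0.57 and 0.49. In the 4 libraries of numbers 2 and 3 alone, edgeR called 0 of the 11725 genes, members included (1223 genes and 2 members, both lower, at an unadjusted p under 0.05), with log2 fold changes of -1.12 for FTL and -0.57 for IREB2. In bulk RNA, a change in the amount per cell and a change in the share of cells that carry an mRNA cannot be told apart.

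**Figure D2:**
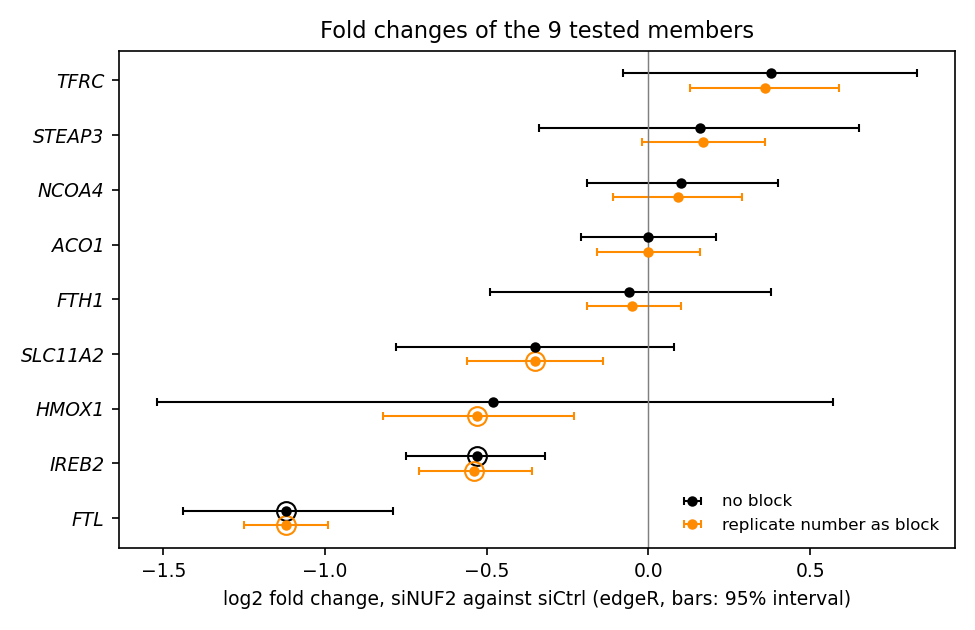
Log2 fold change of siNUF2 against siCtrl for the 9 tested genes with 95% intervals from edgeR, without a block (black) and blocked by replicate number (orange), circled where the adjusted p was under 0.05. FTL and IREB2 were called in both fits, SLC11A2 and HMOX1 with the block only, and the TFRC interval without the block spans 0.

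TFRC, the receptor itself, had a higher mean in siNUF2 but did not pass the test. It read 44.2, 42.8 and 59.2 FPKM in siCtrl and 69.0, 45.0 and 73.3 in siNUF2. Libraries 1 and 3 of siNUF2 were above every siCtrl library, but siNUF2 library 2 lay among the siCtrl values, so that the groups overlapped. The mean went from 48.7 ± 9.07 to 62.5 ± 15.2 FPKM, a log2 fold change of 0.38 (SE 0.20, 95% interval -0.08 to 0.83, adjusted p = 0.378). With a library left out it ran from 0.24, without siNUF2 library 3, to 0.56, without siNUF2 library 2, and it was 0.24 without both libraries of number 1. Each siNUF2 library was above the siCtrl library of its number, by 0.65, 0.11 and 0.33 on the log2 scale of CPM (counts scaled to a common library total). The block narrowed the interval to 0.13 to 0.59 and left the adjusted p at 0.0508. The difference was 0.65 in number 1, the pair of libraries with globin mRNA, and 0.11 and 0.33 in the others, and the part of those transcripts in it was not tested.

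STEAP3 and SLC11A2, which reduce and carry the iron that TFRC brings in, did not pass the test without the block. STEAP3 read 11.9, 7.41 and 7.79 FPKM in siCtrl and 12.5, 8.68 and 8.68 in siNUF2 (log2 fold change 0.16, SE 0.21, 95% interval -0.34 to 0.65, adjusted p = 0.774). Number 1 was the highest library of each group. SLC11A2 read 3.33, 3.12 and 4.38 FPKM in siCtrl and 2.54, 2.40 and 3.42 in siNUF2. The groups overlapped, since siNUF2 library 3 exceeded siCtrl libraries 1 and 2, but within each number the siNUF2 library was lower, by -0.38, -0.34 and -0.34 on the log2 scale. The log2 fold change was -0.35 in both fits, with an adjusted p of 0.381 without the block (SE 0.19) and 0.042 with it (SE 0.09). Without siCtrl library 3 it was -0.19, and over all 6 libraries left out in turn it ran from -0.52 to -0.19.

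Of the storage genes, the light chain of ferritin fell. FTL read 1332, 1051 and 1338 FPKM in siCtrl and 616, 468 and 609.6 in siNUF2. The groups were wide apart, with the highest siNUF2 library well under the lowest siCtrl library. The mean fell from 1240 ± 164 to 564 ± 83.6 FPKM, to 45.5% of control (log2 fold change -1.12, SE 0.14, 95% interval -1.44 to -0.79, adjusted p = 0.00746), and 13.4% of tested genes had siNUF2 values wholly below siCtrl values. An exact two-sided permutation test of the FPKM values gave p = 0.1, the smallest that 3 against 3 libraries allow. The value rested on 32750 to 93424 counts per library. The difference was nearly the same in each number, -1.11, -1.13 and -1.12. HBB was at most 0.0728 FPKM in the libraries of numbers 2 and 3, and the part of globin transcripts in the FTL difference was not tested. Among the 47 tested genes with at least 500 FPKM in siCtrl cells, a level chosen after the values were seen, FTL was the 1 gene called. Over all tested genes 3.99% were called in either direction, so this count alone does not set FTL apart.

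FTH1, the heavy chain with the ferroxidase site, was not called. It read 590.3, 419.6 and 643 FPKM in siCtrl and 523, 421 and 626 in siNUF2, and the groups overlapped almost fully. The means were 551 ± 117 and 523 ± 102 FPKM (log2 fold change -0.06, SE 0.19, 95% interval -0.49 to 0.38, adjusted p = 0.92). With the block the interval was -0.19 to 0.10, which does not include a fall of the size seen for FTL. Library 2 was the lowest of its group for both chains in siCtrl and in siNUF2. FTH1 shares sequence with 18 annotated copies in the table, of which FTH1P2, FTH1P8 and FTH1P10 reached 100 counts, and all copies together came to at most 0.93% of its counts. The 4 FTL copies came to at most 0.067%, so reads assigned to annotated copies are few beside either gene. BEST1, which overlaps FTH1 on the other strand, took 42, 1613 and 1528 counts in siCtrl and 56, 1959 and 14 in siNUF2, against 67790 to 95785 for FTH1, and the strand setting of the counting is not given in the sources used here.

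**Figure D3:**
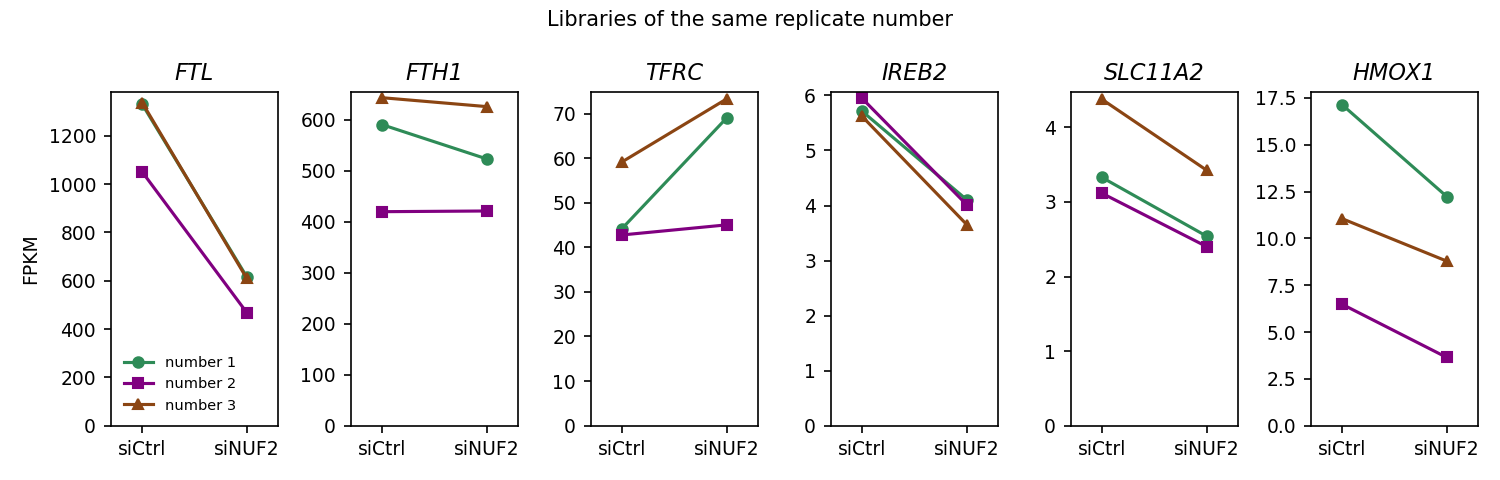
FPKM of 6 members in siCtrl and siNUF2, on linear axes from 0, with lines joining the libraries of the same replicate number. The FTL lines fall in parallel, those of FTH1 stay nearly level, and the HMOX1 lines are far apart but each slopes down.

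The ratio of the 2 ferritin chains within a library was lower in each siNUF2 library than in any siCtrl library. By FPKM, FTL exceeded FTH1 by 2.26, 2.51 and 2.08 times in siCtrl, and the ratio was 1.18, 1.11 and 0.974 in siNUF2. Counts in siCtrl were close, at 93424, 74058 and 86619 for FTL and 95293, 68006 and 95785 for FTH1. In siNUF2 they were 41503, 32750 and 38162 against 81104, 67790 and 90117. Which chain has more mRNA in a library thus rests on the gene lengths used for FPKM. The log2 ratio went from 1.19 ± 0.13 to 0.12 ± 0.14, a difference of -1.07, with no overlap (exact two-sided permutation test, p = 0.1, the smallest possible). This ratio was chosen after the values were seen, and it largely restates the FTL difference, since FTH1 had a log2 fold change of -0.06. The ratio of TFRC to FTL was higher in siNUF2, with log2 values of -4.91, -4.62 and -4.50 in siCtrl and -3.16, -3.38 and -3.06 in siNUF2, a difference of 1.48. Most of it is the FTL difference (log2 fold change -1.12, against 0.38 for TFRC), so this ratio adds no separate result. TFRC over FTH1 differed by 0.41, with log2 values of -3.74, -3.29 and -3.44 in siCtrl and -2.92, -3.22 and -3.09 in siNUF2. Neither of these 2 ratios overlapped between groups, and each gave the smallest p the exact permutation test allows (0.1), but within number 2 TFRC over FTH1 differed by 0.07. How often ratios of other gene pairs lie apart was not computed.

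**Figure D4:**
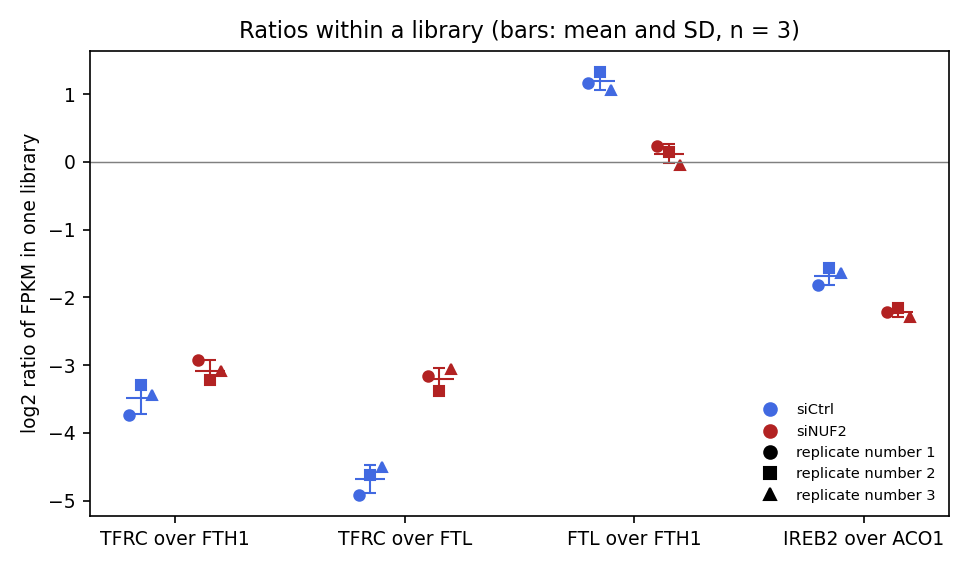
Log2 ratios of FPKM within a library for 4 pairs of genes, with a point per library and the mean and SD of each group (n = 3). The largest separations are those of TFRC over FTL and of FTL over FTH1.

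NCOA4, the receptor that carries ferritin to the lysosome, read 27.7, 25.8 and 24.5 FPKM in siCtrl and 32.4, 23.2 and 27.0 in siNUF2. The groups overlapped (log2 fold change 0.10, SE 0.13, 95% interval -0.19 to 0.40, adjusted p = 0.745).

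Of the 2 iron sensors, IREB2 fell and ACO1 was not called. IREB2 read 5.71, 5.95 and 5.62 FPKM in siCtrl and 4.10, 4.01 and 3.65 in siNUF2, tight groups with a clear gap between them. Groups lay apart in this direction in 13.4% of tested genes. The mean was 68.1% of control (log2 fold change -0.53, SE 0.09, 95% interval -0.75 to -0.32, adjusted p = 0.0201), and the 3 numbers gave -0.47, -0.53 and -0.60. This call was close to the threshold. It was lost when any of the 6 libraries was left out (adjusted p from 0.0503 to 0.0779) and when genes of low level were kept in the test (0.0639), while the direction stayed, and with the block the adjusted p was 0.00443. ACO1 read 20.1, 17.7 and 17.5 FPKM in siCtrl and 19.0, 17.8 and 17.9 in siNUF2 (log2 fold change 0.00, SE 0.09, 95% interval -0.21 to 0.21, adjusted p = 0.998). The log2 ratio of IREB2 to ACO1, also chosen after the values were seen, went from -1.68 ± 0.13 to -2.22 ± 0.07 without overlap (difference -0.54, exact permutation p = 0.1). With ACO1 at 0.00, this ratio restates the IREB2 difference.

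HMOX1, the inducible haem oxygenase, was the most variable member. It read 17.1, 6.48 and 11.1 FPKM in siCtrl and 12.2, 3.64 and 8.79 in siNUF2, a coefficient of variation of 46.2% and 52.6%. Number 1 was highest and number 2 lowest in both groups. The groups overlapped and the fold change was not called (log2 -0.48, SE 0.45, 95% interval -1.52 to 0.57, adjusted p = 0.658). It was -0.08 without siCtrl library 1, -0.13 without siNUF2 library 2, -0.76 without siCtrl library 2 and -0.87 without siNUF2 library 1. Within each number siNUF2 was lower, by -0.48, -0.80 and -0.31, and with the block the log2 fold change was -0.53 (SE 0.13, adjusted p = 0.0327).

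SLC40A1, the exporter, was nearly silent and was not tested. It had 24, 27 and 32 counts in siCtrl and 12, 18 and 10 in siNUF2, in sum 83 against 40, and the groups did not overlap (exact permutation p = 0.1). The share of genes apart in this direction is known for tested genes only (13.4%), not for genes of this level. At 0.412 ± 0.0826 and 0.201 ± 0.0528 CPM, here by plain library totals without TMM factors, the difference rests on few reads.

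Across the 6 libraries, the 5 genes whose log2 CPM were most like those of TFRC were XIAP, TBC1D13, B3GLCT, NSMCE3 and KRR1, with Pearson's r from 0.982 to 0.984, and 139 genes had r of at least 0.9. XIAP, an inhibitor of caspases, read 3.98, 3.89 and 4.61 FPKM in siCtrl and 4.77, 3.99 and 4.75 in siNUF2, and as for TFRC its 3 highest libraries were siCtrl 3 and siNUF2 1 and 3. Their log2 fold changes were 0.13 to 0.23, with adjusted p from 0.458 to 0.635. With 6 points that share 2 groups and 3 numbers these values are descriptions. Between members, FTL and IREB2 gave 0.90, ACO1 and STEAP3 0.91, and TFRC and FTL -0.35.

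The wider iron handling machinery was described with 8 lists of 97 genes by role, of which 95 were in the table and 76 were tested. Of these 76, 1 rose and 3 fell, beside the 3.99% of all tested genes that were called, and blocking by number gave 4 and 11, beside 14.5%. The median log2 fold change was -0.01. Both calls outside the members are genes of mitochondrial iron-sulfur assembly, and they went in opposite directions. GLRX5, a glutaredoxin that passes iron-sulfur clusters on, read 29.2, 32.8 and 37.0 FPKM in siCtrl and 15.9, 17.8 and 17.5 in siNUF2 (log2 fold change -0.93, SE 0.12, adjusted p = 0.00746). ISCA1, a scaffold-like protein of late cluster assembly, read 10.5, 11.7 and 8.91 FPKM in siCtrl and 21.5, 17.7 and 19.8 in siNUF2 (log2 fold change 0.94, SE 0.13, adjusted p = 0.00882). The groups of each gene were wholly apart, as were those of 23.9% of tested genes in either direction.

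By role, edgeR, DESeq2 and limma called 0 of 7 tested uptake genes (unadjusted p under 0.05 for 0, 1 and 0), from SLC11A2 at -0.35 to TFRC at 0.38. The counts at an unadjusted p under 0.05 stand beside 2129 (edgeR), 2219 (DESeq2) and 2066 (limma, pseudocount 1) of all 11725 tested genes. The 12 genes of TFRC trafficking held 0 calls with these 3 tools (unadjusted p under 0.05 for 1 gene with each), from PICALM, a clathrin adaptor, at -0.36 to RAB11FIP5 at 0.16. PICALM was called lower with the block (adjusted p = 0.0106). Of 7 storage and ferritinophagy genes FTL fell, and NCOA4 was the highest at 0.10. HERC2, a ubiquitin ligase, was at -0.33 and was called lower with the block (adjusted p = 0.0212). Of 9 genes of iron export and its systemic control 1 was tested, APP at 0.05 (adjusted p = 0.885). Of 5 sensing genes IREB2 fell, and CUL1, a scaffold of the ubiquitin ligase that degrades IRP2, was the highest at 0.07. SKP1, of the same ligase, was at -0.31 and was called lower by DESeq2 and with the block (adjusted p = 0.0193) but not by edgeR without it (0.0931). The 15 haem genes held 0 calls with edgeR and limma and 1 with DESeq2 (CPOX), beside 3, 2 and 3 genes at an unadjusted p under 0.05, from CPOX, an enzyme of haem synthesis, at -0.58 to HMOX2, the constitutive haem oxygenase, at 0.38, and with the block both were called (adjusted p = 0.00352 and 0.0208). Of 26 genes of mitochondrial iron and iron-sulfur assembly, edgeR and limma called 2. DESeq2 and the blocked fit each called 4, adding NFS1, the cysteine desulfurase (0.49, adjusted p = 0.0237 with the block), and ABCB10, a mitochondrial transporter (-0.87, adjusted p = 0.0192), both named after their values were seen, as were HERC2 and SKP1. Among 7 tested mRNAs known to hold an IRE, FTL fell and was the lowest.

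**Figure D5:**
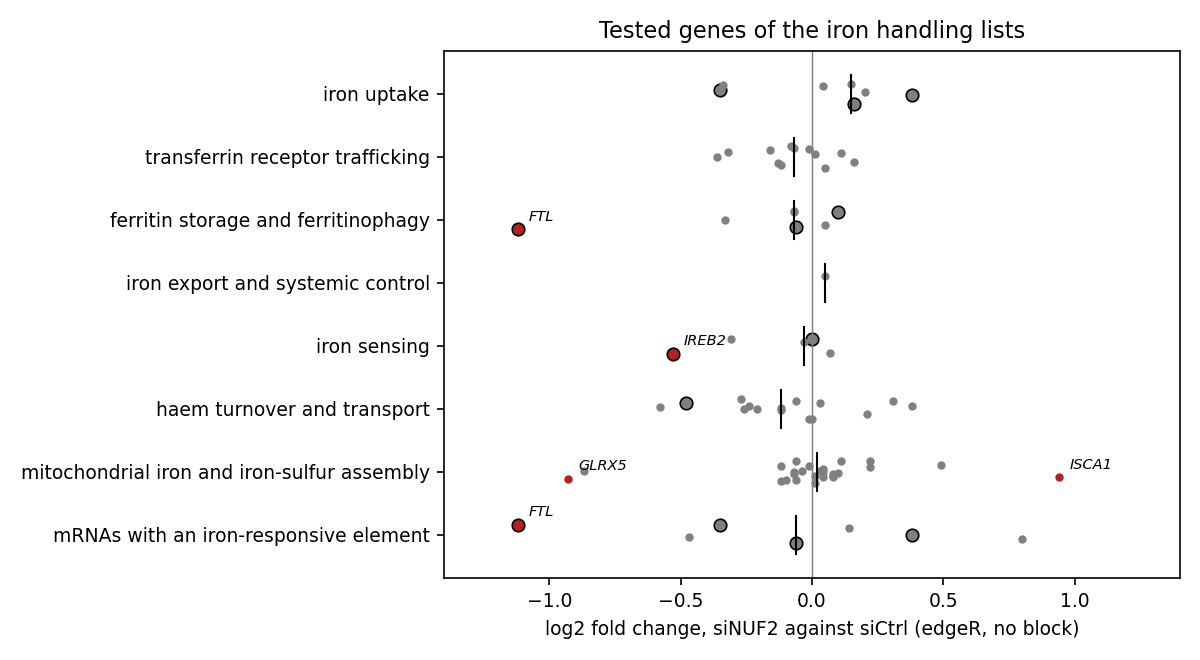
Log2 fold change of each tested gene of the 8 iron handling lists, red where the adjusted p was under 0.05 and outlined where the gene is among the 10 followed here, with a vertical bar at the median of each list. Most genes lie near 0, with FTL, IREB2, GLRX5 and ISCA1 called.

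The 3′ UTRs were searched for letters that pair with the start of the siRNA, shown because a siRNA can lower mRNAs other than its target through such sites. No member held TATGGAA, the site for positions 2 to 8 of the antisense strand, in the 3′ UTR of its canonical transcript, where 15.1% of 10121 tested genes did. TFRC and SLC40A1 held it in the coding sequence, as did 14.7% of 10254 tested genes. The overlapping word ATGGAAA, which leaves out the first letter and adds an A, was examined after the values were seen and was present in 24.1% of tested genes. It was found in the 3′ UTR of FTL (chr19:48966846-48966872, plus strand, exon 4 of 4), IREB2 (chr15:78500720-78500746, plus strand, exon 22 of 22), SLC11A2 (chr12:50986953-50986979, minus strand, exon 16 of 16) and SLC40A1. GLRX5 held both words in one site (chr14:95544505-95544532, plus strand, exon 2 of 2), and ISCA1 neither. Of the 7 tested list genes with TATGGAA in the 3′ UTR, 2 were lower by sign and 1 (GLRX5) was called, with log2 fold changes from -0.93 to 0.31 and a median of 0.08. The sites are given 5′ to 3′ with the letters searched in capitals.
FTL site: cttggaccaaATGGAAAtaaagctttt
IREB2 site: aatggaatcaATGGAAAtgtcatccag
SLC11A2 site: gagaacagtaATGGAAAatggtgttga
GLRX5 site: cttcttttgtTATGGAAAatggtgaaca
The 15 tested list genes with ATGGAAA in the canonical 3′ UTR, members included, had log2 fold changes from -1.12 to 0.49 (median -0.31). Among them 11 were lower by sign and 3 were called, which were FTL, IREB2 and GLRX5. The 61 without it ran from -0.58 to 0.94 (median 0.00), with 30 lower by sign and 1 called. Since the word was examined after these values were seen, the comparison describes the selected genes and tests nothing. How many of all tested genes with the word were lower or called was not computed. Among the members alone, the 3 tested with ATGGAAA had log2 fold changes from -1.12 to -0.35 and the 6 without it from -0.48 to 0.38. This split depends on the transcript used, since the longest annotated 3′ UTR of IREB2, that of another transcript, did not hold ATGGAAA, and FTL and SLC11A2 were then the tested members with it. The 3′ UTR of FTL is 144 bases long, and the IREB2 site lies beyond the end of IREB2 in the deposited table, 78498209. Whether these sites played a part in the differences was not tested.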

How the data were processed

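Per the labels and the study's methods, fastp (read quality), HISAT2 (alignment, GRCh38) and StringTie (quantification) were used. Versions, annotation release and strand setting are not given in the sources used here. The authors deposited counts, whole numbers per gene without normalization, and FPKM, scaled by length and library size, and all 12 columns were used. The knockdown columns were matched to siNUF2 by genotype label and number.

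Counts were tested with edgeR 4.0.16 (quasi-likelihood, TMM) in R 4.3.3, for genes with a mean of at least 1 FPKM, with Benjamini-Hochberg adjustment over all 11725. The code was first tested on simulated data. Intervals are 95%. The number was used as a block because deviations from group means correlated at 0.344 to 0.446 within a number. Between numbers they correlated at -0.263 to -0.141, which is not a separate result, since deviations within a group add up to 0. No source says what a number shares or that the libraries are paired. Alternatives were the block, DESeq2 1.42.0, limma 3.58.1, other scalings, filters and pseudocounts, and leaving out libraries.

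The members and lists were chosen with earlier results of these data known. Named genes are the members, NUF2, called list genes, the extremes of each list, the 5 genes most like TFRC, overlapping genes and copies of at least 100 counts. Some genes under this rule are not reported here. UTRs came from canonical GENCODE release 44 transcripts, in place of the longest 3′ UTR planned; of 32855 shared gene IDs, 94.9% had the same start or end in both annotations. Motifs were searched on the sense strand, and IREs in every protein-coding transcript. Protein identities were not computed. Overlapping genes other than BEST1 (2 genes named AC024937 and RNU7-18P at TFRC, RNU6-87P at SLC11A2, STEAP3-AS1 at STEAP3) had at most 27 counts.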

Additional observations from a re-analysis of the deposited data

How the results depend on the processing

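With the replicate block, 778 genes were called higher and 927 lower against 179 and 289 without it, 4 members lower against 2, and 4 list genes higher and 11 lower against 1 and 3, and it changed no call of FTL, IREB2, GLRX5 or ISCA1. Without the filter on low values 67 and 121 genes and 1 member (FTL) were called, and with a filter at 5 FPKM 1 member, since IREB2 is then not tested. DESeq2 called 408 genes higher and 564 lower, with 3 list genes higher and 6 lower, and limma called 117 higher with a pseudocount of 1 and 110 with 0.1. Leaving out 1 library at a time gave 44 to 105 genes higher, 80 to 167 lower and 1 member lower in each case, with 1 to 2 list genes higher. Without both libraries of number 1, an alternative chosen after seeing the data, edgeR called 0 genes higher, 0 lower, 0 members and 0 list genes, with 1223 genes and 2 members at an unadjusted p under 0.05. There FTL stood at -1.12 (adjusted p = 0.136) and IREB2 at -0.57 (0.218), so that these 4 libraries could not carry a call for any gene. Values near 0 changed sign. ACO1 was -0.0021 with the size factors of DESeq2 and in DESeq2, -0.01 with upper-quartile factors, -0.02 with the 5 FPKM filter and with both limma fits, and -0.03 to 0.07 with a library left out. FTH1 was 0.0030 without number 1 and between -0.22 and 0.07 with a library left out. STEAP3 went from -0.03 to 0.41 and NCOA4 from -0.02 to 0.21. The cause of these moves was not tested. SLC40A1, at 10 to 32 counts, is limited by depth.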
